A study of Homo sapiens with 12 samples.

Results

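Homologous recombination, the Fanconi pathway and polymerase theta repair are represented here by 36 genes chosen by name for their known roles in DNA break repair, and their transcripts were followed across the 4 groups of a BMP washout experiment. The 36 genes are those of 58302 Ensembl identifiers in the count table whose GENCODE v44 symbol is on the list, and all 36 passed the filter on low counts. The rule for the list uses names only and no measured value. RNA was sequenced from MIB1-iKO cells, a single-cell clone of the lung cancer line NCIH838 in which doxycycline (Dox) switches on Cas9 with a guide RNA against *MIB1*, an E3 ubiquitin ligase gene. Each group held 3 libraries. Cells of every group were first kept for 3 days in 50 nM LDN, an inhibitor of BMP receptor kinases (LDN-193189 in the paper, spelled LDN189193 in the sample labels), either with 0.5 µg/mL Dox (MIB1 KO) or without it (MIB1 WT). All of them then received 10 ng/mL BMP4 for 24 hours, with LDN still present in the BMP-off groups and DMSO added instead in the BMP-on groups. Since Dox was given to all KO and to none of the WT libraries, *MIB1* loss, Dox and Cas9 cutting cannot be told apart. The sources do not say that the replicates were separate cultures, and p values therefore measure the spread between these libraries, which may be technical.

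Homologous recombination repairs a broken chromosome by copying the sister chromatid, and it is therefore used mainly in S and G2 phase. Broken ends are resected to single strands, BRCA1, PALB2 and BRCA2 prepare these strands for pairing with the sister, and the Fanconi proteins bring the same machinery to DNA crosslinks and stalled forks. Polymerase theta, the product of *POLQ*, joins resected ends through short homologies and is used more when recombination fails. Because many of these genes are transcribed under control of the cell cycle, the 36 genes were divided from general knowledge into 19 cycle-linked genes, whose transcripts peak from late G1 to G2, and 17 steady genes, whose transcripts change little through the cycle. Earlier results of these data were known when the classes were set, so that differences between the classes are descriptive and not an independent test.

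*MIB1* itself was at 144 to 176 CPM (counts scaled to a common library total) in the 6 WT libraries and at 31.0 to 34.4 CPM in the 6 KO libraries. Library totals ran from 19124010 to 29498000 counts. Within groups, counts deviated with the GC content of transcripts, with Spearman's rho across genes lowest at -0.60 (KO BMP-off replicate 2) and highest at 0.59 (replicate 3 of the same group), and values corrected for this trend are given beside calls that it changed. The epithelial markers *KRT8* and *KRT18* were present in every library at 21.8 to 43.2 and 71.1 to 85.4 RPKM (reads per kilobase of gene, scaled to the library). Of the other epithelial markers, *EPCAM* was at 2.53 to 5.08 and *CDH1* at 1.13 to 1.95 RPKM, and *KRT19* had at most 2 counts. The lung markers *NKX2-1*, *SFTPB* and *SFTPC* had at most 2 counts in any library, and *NAPSA* had 6 to 27. The leukocyte marker *PTPRC* had 0 counts and *CD3E* 1 to 9, but *CD14* had 73 to 140. Of the fibroblast markers, *COL1A1* had 275 to 1071 counts, *PDGFRB* 15 to 42, *COL3A1* at most 8 and *DCN* at most 3. In such bulk samples, fewer cells of a type and less RNA per cell cannot be told apart.

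Lower transcript levels of the cycle-linked repair genes in KO cells with BMP-on were the main pattern. When BMP signaling was released in KO cells, all 19 cycle-linked genes fell, with log2 fold changes from -0.72 to -0.28 and a median of -0.48, and 4 of the 17 steady genes fell, with a median of -0.11 over the 17. Together, 23 of the 36 repair genes passed the test (adjusted p at most 0.05 in edgeR's quasi-likelihood test with Benjamini-Hochberg adjustment over all genes tested), each of them lower, while 22.0% of the 17188 genes tested passed in either direction and 10.9% were lower. None of the 23 also reached a log2 fold change of 1 in size, where 1.66% of all genes passed in KO and 0.425% in WT cells. The median over all genes tested lay within 0.012 of 0 in every comparison, on the log2 scale. Release of BMP signaling in WT cells lowered 4 of the 36 genes (*BARD1*, *FANCI*, *EXO1* and *CHEK2*), where 3.92% of all genes passed and 2.01% were lower. With the GC correction there were 10 (8.96% of all genes, 5.56% lower), the added ones being *RAD54L*, *RBBP8*, *CHEK1*, *FANCD2*, *FANCG* and *BLM*, and 26 in KO cells (24.7%, 14.0% lower). The medians without it were -0.17 in WT cells for the cycle-linked and -0.014 for the steady genes. The count of 4 in WT cells rested on few libraries, since it fell to 1 without KO BMP-off replicate 1, KO BMP-on replicate 3 or any 1 of the WT BMP-on replicates, and to 2 without KO BMP-on replicate 1 or 2 or WT BMP-off replicate 3. Calls among all genes in WT cells ran from 366 to 1118 over the fits without 1 library.

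Direct comparison of KO with WT cells in BMP-on found 13 of the 36 genes lower and 0 higher, where 3.67% of all genes passed and 2.34% were lower. All 13 belonged to the 19 cycle-linked genes, whose median was -0.31, and 0 of the 17 steady genes passed (median -0.091), although 7 of these had an unadjusted p under 0.05. DESeq2 called 14 of the 36 and limma-voom 10. The KO and WT libraries did not overlap for 18 of the 19 cycle-linked genes and for 7 of the 17 steady genes with KO the lower, compared with 12.2% of all genes, and for 1 steady gene, *FANCF*, with KO the higher, compared with 11.4%. At an unadjusted p under 0.05 there were 24 of the 36, beside 13.8% of all genes. The count of 13 became 7 without KO BMP-on replicate 2 and 8 without KO BMP-on replicate 1, WT BMP-on replicate 1 or WT BMP-on replicate 3, and *FANCI*, *BARD1*, *FANCD2*, *POLQ*, *EXO1*, *BRCA1* and *FANCA* were called whichever of the 12 libraries was left out. Calls among all genes ran from 326 to 862 over these 12 fits. With the GC correction, 17 of the 36 were lower and 1, *FANCF*, was higher, where 7.39% of all genes passed, 4.79% lower and 2.60% higher. Not 1 of the 36 passed with a change of at least 1 log2 unit in addition, where 0.140% of all genes did. The KO BMP-on libraries enter both this comparison and the BMP response of KO cells, so that their counts are not independent of each other.

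**Figure D1:**
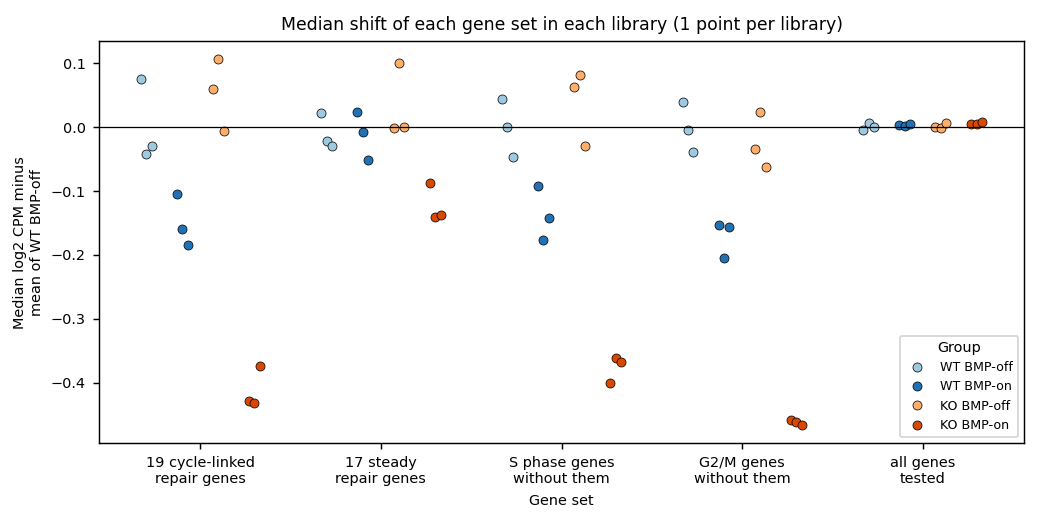
Median over the genes of a set of log2 CPM minus the same gene's mean in the 3 WT BMP-off libraries (vertical axis, log2 units). Sets are the 19 cycle-linked repair genes, the 17 steady repair genes, S phase and G2/M genes of the Seurat package without the repair genes, and all genes tested. There is 1 point per library and a color per group. The 3 KO BMP-on libraries lie between -0.43 and -0.37 for the cycle-linked genes and between -0.14 and -0.088 for the steady genes.

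The shift was seen library by library. For each gene, its mean log2 CPM in the WT BMP-off libraries was subtracted, and the median over genes was taken. The median of the cycle-linked genes was -0.43, -0.43 and -0.37 in the KO BMP-on libraries and -0.11, -0.16 and -0.18 in the WT BMP-on libraries. It was 0.060, 0.11 and -0.0066 in the KO BMP-off libraries, which overlapped with 0.076, -0.042 and -0.030 in WT BMP-off. For the steady genes, the KO BMP-on libraries were at -0.088, -0.14 and -0.14 and the WT BMP-on libraries at 0.023, -0.0076 and -0.051. The map of genes by library shows that the lower values of KO BMP-on fill nearly the whole cycle-linked block and only a part of the steady block.

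**Figure D2:**
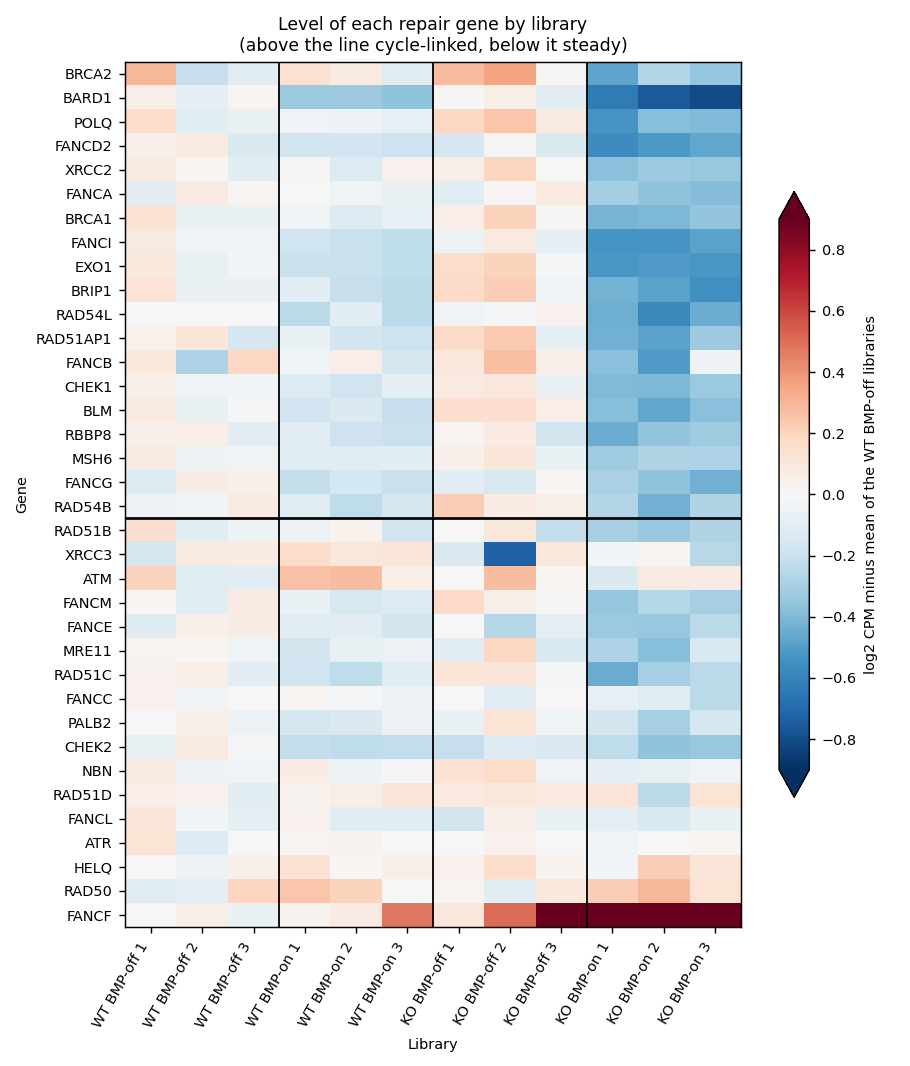
Level of the 36 repair genes (rows) in the 12 libraries (columns, 3 for each group) as log2 CPM minus the mean of the WT BMP-off libraries, blue for lower and red for higher, with the color scale ending at 0.9 log2 units on either side. The 19 cycle-linked genes are above the horizontal line and, in each block, genes are ordered by log2 fold change in KO against WT with BMP-on.

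Promoter sequences are shown for members that moved together, since E2F factors bind short GC-rich letters in many promoters of S phase genes, and the CHR element recruits the cell cycle repressor complex that contains LIN54. RefSeq promoter windows (GRCh38.p14, 250 bases before to 50 after a start) were matched by symbol for 33 of the 36 genes, some with several starts. Both strands were searched for TTTCCCGC, TTTCGCGC, TTTGCCGC and TTTGGCGC (E2F), TTTGAA (CHR) and CCAAT, and 0 matches overlapped another in these windows. E2F letters were in 5 of 26 windows of cycle-linked genes (19.2%), 1 of 22 windows of steady genes (4.55%) and 3.31% of all 35116 windows. The CHR letters were in 7.69% and 18.2% of the cycle-linked and steady windows and 15.2% of all, and CCAAT in 42.3%, 45.5% and 34.6%. A match is a description of letters and not a bound site. The 5 cycle-linked genes with E2F letters are shown with *POLQ*, which has the CHR letters in its window, and with *FANCC*, the steady gene with E2F letters, from 250 bases upstream to the start or to the end of a match that lies past it. Capitals mark E2F and CHR letters, and each line runs 5′ to 3′ on the strand of the gene.
FANCD2 (chr3:10026187-10026442, plus strand): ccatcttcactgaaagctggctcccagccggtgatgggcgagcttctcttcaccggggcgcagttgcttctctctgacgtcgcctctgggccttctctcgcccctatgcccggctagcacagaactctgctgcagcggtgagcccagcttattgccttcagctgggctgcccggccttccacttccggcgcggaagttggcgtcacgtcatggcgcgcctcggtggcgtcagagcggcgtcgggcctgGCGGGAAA
EXO1 (chr1:241847954-241848215, plus strand): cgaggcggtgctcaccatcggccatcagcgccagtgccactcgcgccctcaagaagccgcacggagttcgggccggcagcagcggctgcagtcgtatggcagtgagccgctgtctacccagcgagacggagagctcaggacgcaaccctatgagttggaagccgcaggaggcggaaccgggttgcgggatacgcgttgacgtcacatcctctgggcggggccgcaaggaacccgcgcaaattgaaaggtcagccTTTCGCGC
MSH6 (chr2:47782895-47783155, plus strand): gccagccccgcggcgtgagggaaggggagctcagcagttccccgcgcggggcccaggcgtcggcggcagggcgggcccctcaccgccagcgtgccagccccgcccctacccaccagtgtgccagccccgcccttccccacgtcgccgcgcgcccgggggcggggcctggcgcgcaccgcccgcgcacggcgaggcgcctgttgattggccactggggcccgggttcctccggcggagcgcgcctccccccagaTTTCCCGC
XRCC2 (chr7:152676113-152676391, minus strand): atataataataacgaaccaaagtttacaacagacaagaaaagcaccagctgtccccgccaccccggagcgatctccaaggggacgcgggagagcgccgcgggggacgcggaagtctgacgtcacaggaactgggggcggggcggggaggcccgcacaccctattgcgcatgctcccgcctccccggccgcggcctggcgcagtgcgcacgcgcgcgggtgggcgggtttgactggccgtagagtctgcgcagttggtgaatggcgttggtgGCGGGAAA
FANCA (chr16:89816648-89816897, minus strand): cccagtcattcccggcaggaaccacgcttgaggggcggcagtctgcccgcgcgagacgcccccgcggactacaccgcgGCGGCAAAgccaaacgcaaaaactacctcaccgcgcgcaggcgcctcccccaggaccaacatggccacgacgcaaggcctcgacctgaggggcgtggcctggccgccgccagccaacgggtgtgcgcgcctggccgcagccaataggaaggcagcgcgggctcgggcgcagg
POLQ (chr3:121545980-121546238, minus strand): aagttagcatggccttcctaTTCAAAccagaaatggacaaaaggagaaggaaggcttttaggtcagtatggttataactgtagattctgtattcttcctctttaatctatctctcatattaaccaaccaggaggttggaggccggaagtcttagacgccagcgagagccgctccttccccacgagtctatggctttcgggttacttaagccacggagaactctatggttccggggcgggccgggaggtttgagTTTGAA
FANCC (chr9:95317710-95317959, minus strand): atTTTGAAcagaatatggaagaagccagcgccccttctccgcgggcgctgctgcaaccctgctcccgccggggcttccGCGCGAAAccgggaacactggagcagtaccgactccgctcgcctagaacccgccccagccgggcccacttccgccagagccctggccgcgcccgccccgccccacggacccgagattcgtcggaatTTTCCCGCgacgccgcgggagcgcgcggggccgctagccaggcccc

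The match lies across or just past the annotated start in *FANCD2*, *EXO1*, *MSH6* and *XRCC2* and farther upstream in *FANCA*. All 5 of these genes are cycle-linked, and 13 of the 19 cycle-linked genes were lower in KO cells with BMP-on, these 5 among them. The steady gene *FANCC* was not called there (log2 fold change -0.13 ± 0.056, edgeR adjusted p = 0.315). Whether the letters have a part in the change was not tested. The other 8 called genes include *FANCI*, for which no window was matched, and *POLQ*, *BARD1* and *BRCA1*, whose windows hold none of the E2F letters searched.

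Measured per length in the deposited RPKM values, the repair genes spanned a wide range of levels. *FANCI* was the most abundant in mean RPKM over the 12 libraries (71.0, range 54.2 to 87.5), followed by *MSH6* (35.7), *NBN* (33.3) and *EXO1* (32.6). *FANCF*, *RAD50* and *RAD51D* were the lowest, at 0.111, 0.688 and 1.35 RPKM, and *FANCF* had a mean of only 11.3 counts. *RAD50* shares 8124 of its 10565 annotated exon bases with a same-strand gene that was listed at 0 counts in every library, and *RAD54B* shares 3511 of 5319 with *FSBP*, which had 0 to 2 counts, so that levels of *RAD50* and *RAD54B* are uncertain.

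The FANCI-FANCD2 clamp, which is ubiquitinated at crosslinks and is the central switch of the Fanconi pathway, was lower in KO cells with BMP-on in both subunits. *FANCI* (ENSG00000140525, chr15:89243945-89317261 in GRCh38) was at 419, 384 and 385 CPM in WT BMP-off, 349, 344 and 338 CPM in WT BMP-on, 382, 419 and 374 CPM in KO BMP-off and 273, 274 and 283 CPM in KO BMP-on. The KO BMP-on libraries were below all others, the WT BMP-on libraries lay between them and the BMP-off libraries, and the BMP-off groups overlapped. *FANCI* fell with BMP release in WT (-0.20 ± 0.049 log2 fold change, edgeR adjusted p = 0.0239) and in KO cells (-0.50 ± 0.049, 2.14e-06), and KO BMP-on was at 80.6% of WT BMP-on (-0.31 ± 0.049, 0.00140), the smallest p value of the 36 genes in that comparison. For *FANCD2*, CPM were 139, 143 and 123 in WT BMP-off, 119, 120.0 and 119 in WT BMP-on, 121, 136 and 124 in KO BMP-off and 91.0, 94.1 and 97.7 in KO BMP-on. The KO BMP-on libraries were again below all others, and the WT BMP-on libraries lay between them and the BMP-off libraries, which overlapped. KO BMP-on was at 79.1% of WT BMP-on (-0.34 ± 0.059 log2 fold change, edgeR adjusted p = 0.00305).

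**Figure D3:**
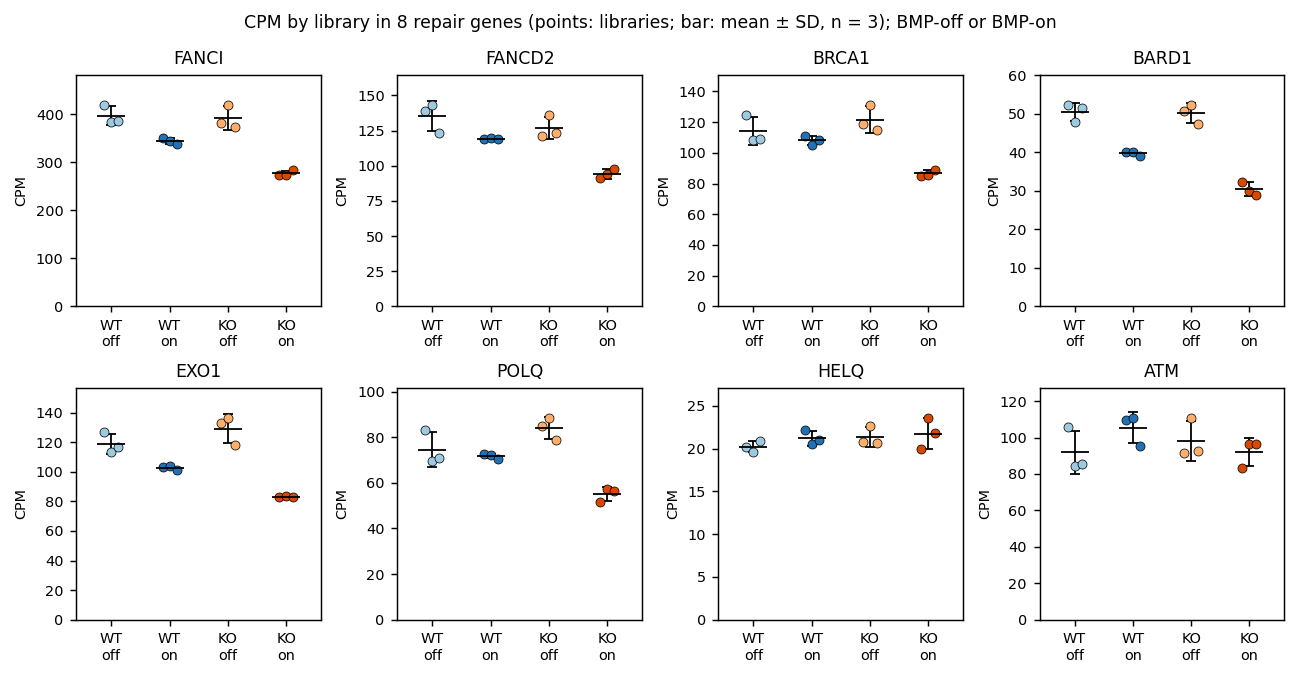
CPM (vertical axes, from 0) of *FANCI*, *FANCD2*, *BRCA1*, *BARD1*, *EXO1*, *POLQ*, *HELQ* and *ATM* in the 4 groups, with 1 point per library and bars for the mean and SD of the 3 libraries. The KO BMP-on libraries of the first 6 genes lie below every other library, and those of *HELQ* and *ATM* overlap with other groups.

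Members of the Fanconi core complex, the ubiquitin ligase that acts on FANCI-FANCD2, differed from each other and did not divide cleanly by class. *FANCA*, a scaffold subunit of the complex, was at 41.1, 46.8 and 44.9 CPM in WT BMP-off, 44.3, 43.2 and 42.2 in WT BMP-on, 41.3, 44.5 and 47.0 in KO BMP-off and 35.7, 34.4 and 33.8 in KO BMP-on. The KO BMP-on libraries were the lowest and the other 3 groups overlapped. Its log2 fold change was -0.32 ± 0.063 in KO against WT with BMP-on (edgeR adjusted p = 0.00729) and -0.033 ± 0.063 in the BMP response of WT cells (adjusted p = 0.857). *FANCG* and *FANCB* fell with BMP release in KO cells (-0.28 ± 0.064 and -0.44 ± 0.13), as did the steady gene *FANCM*, the translocase that anchors the complex on DNA (-0.38 ± 0.068, edgeR adjusted p = 7.34e-04). None of these 3 passed in KO against WT with BMP-on (adjusted p = 0.218, 0.454 and 0.174), but *FANCG* did with the GC correction (-0.19 ± 0.049, edgeR adjusted p = 0.0171). *FANCC*, *FANCE* and *FANCL*, the last being the catalytic subunit, passed in no comparison, although *FANCC* and *FANCE* passed in the BMP response of KO cells with the GC correction (-0.16 ± 0.049 and -0.28 ± 0.066, edgeR adjusted p = 0.0190 and 0.00310). Reads of *FANCA* and of its opposite-strand neighbor *ZNF276*, which share 2409 of 12316 exon bases of *FANCA*, can be told apart only if strand was used in counting, which the sources do not state.

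*FANCF*, the adaptor of the core complex, had the highest log2 fold change of the 36 genes in KO against WT with BMP-on, at very low depth. Its levels were 0.287, 0.304 and 0.273 CPM in WT BMP-off, 0.295, 0.308 and 0.431 in WT BMP-on, 0.314, 0.442 and 0.631 in KO BMP-off and 0.805, 0.731 and 0.660 in KO BMP-on. The KO libraries were above the WT libraries in each BMP state without overlap, as were 11.4% of all genes with BMP-on. The log2 fold change of 1.07 ± 0.31 with BMP-on did not pass (edgeR adjusted p = 0.0700) and passed with the GC correction (1.08 ± 0.33, adjusted p = 0.0435). With BMP-off it was 0.65 ± 0.35 (adjusted p = 0.557).

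Among the BRCA mediators, *BRCA1*, *BARD1* and *BRIP1* were lower in KO cells with BMP-on, and *BRCA2* and *PALB2* did not pass. *BARD1*, the RING partner of BRCA1 (ENSG00000138376, chr2:214725646-214809683), was at 52.2, 47.7 and 51.4 CPM in WT BMP-off, 40.0, 40.2 and 39.1 in WT BMP-on, 50.8, 52.3 and 47.2 in KO BMP-off and 32.4, 29.8 and 28.9 in KO BMP-on. BMP-on libraries were below BMP-off libraries in both genotypes, and KO BMP-on was the lowest group. This gene had the lowest log2 fold change of the 36 in both BMP responses, -0.34 ± 0.060 in WT (edgeR adjusted p = 0.00283) and -0.72 ± 0.062 in KO cells (adjusted p = 6.11e-07), and KO BMP-on was at 76.4% of WT BMP-on (-0.39 ± 0.062, adjusted p = 0.00160). *BRCA1*, a ubiquitin ligase that promotes resection, was at 124, 108 and 109 CPM in WT BMP-off and 111, 105 and 108 in WT BMP-on. In KO cells it was at 119, 131 and 115 CPM with BMP-off and 85.2, 85.8 and 89.1 with BMP-on. KO BMP-on libraries were the lowest, and the WT groups overlapped. The log2 fold change was -0.32 ± 0.061 in KO against WT with BMP-on (edgeR adjusted p = 0.00592) and -0.078 ± 0.061 for BMP release in WT cells (adjusted p = 0.604).

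*BRIP1*, the helicase bound by BRCA1, had 43.6, 38.6 and 38.4 CPM in WT BMP-off, 37.5, 34.8 and 34.1 in WT BMP-on, 45.2, 46.8 and 39.1 in KO BMP-off and 29.8, 28.8 and 27.3 in KO BMP-on. The KO BMP-on libraries were below the other 9, with -0.31 ± 0.076 against WT BMP-on (edgeR adjusted p = 0.0327). This call was kept in 5 of the 12 fits without a library. *BRCA2*, a mediator of strand pairing, varied more between replicates, from 58.6 to 83.3 CPM in WT BMP-off and from 48.6 to 56.4 CPM in KO BMP-on. It fell with BMP release in KO cells (-0.58 ± 0.13, edgeR adjusted p = 0.00968) and had a log2 fold change of -0.40 ± 0.13 in KO against WT with BMP-on that did not pass (adjusted p = 0.170). The steady gene *PALB2*, which bridges BRCA1 and BRCA2, fell by 0.21 on the log2 scale in KO cells on BMP release (adjusted p = 0.0303), a call lost with the GC correction (-0.15 ± 0.057, adjusted p = 0.0573) and in 9 of 25 alternatives in all. It was at 93.9% of WT in BMP-on (adjusted p = 0.621).

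Genes that help the invasion of the sister duplex were all lower after BMP release in KO cells. *RAD54L*, a motor protein of strand invasion, was at 47.1, 47.4 and 47.1 CPM in WT BMP-off, 39.9, 44.1 and 39.9 in WT BMP-on, 46.1, 46.8 and 48.5 in KO BMP-off and 34.8, 31.5 and 34.7 in KO BMP-on. BMP-on was below BMP-off in each genotype without overlap. In KO against WT with BMP-on the log2 fold change was -0.29 ± 0.059 (edgeR adjusted p = 0.00846). *RAD51AP1*, which promotes strand pairing, was at 53.2, 55.8 and 46.7 CPM in WT BMP-off, 49.7, 46.0 and 45.4 in WT BMP-on, 58.4, 61.1 and 48.6 in KO BMP-off and 38.4, 37.0 and 41.2 in KO BMP-on. It fell by 0.53 on the log2 scale in KO cells (edgeR adjusted p = 3.17e-04), and KO against WT with BMP-on gave -0.27 ± 0.085 (adjusted p = 0.103), without overlap of the libraries, and passed with the GC correction (-0.25 ± 0.060, adjusted p = 0.0101). *RAD54B* had -0.44 ± 0.085 in the BMP response of KO cells (adjusted p = 0.00154) and -0.15 ± 0.086 in KO against WT with BMP-on (adjusted p = 0.480).

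Of the 5 genes *RAD51B*, *RAD51C*, *RAD51D*, *XRCC2* and *XRCC3*, which act together in recombination, *XRCC2* passed in KO against WT with BMP-on, and *XRCC3* passed there with the GC correction (-0.31 ± 0.078, edgeR adjusted p = 0.0150, against -0.21 ± 0.16 and 0.634 without it). *XRCC2* was at 25.4, 24.3 and 22.3 CPM in WT BMP-off, 24.2, 22.1 and 24.7 in WT BMP-on, 24.8, 27.4 and 23.9 in KO BMP-off and 18.4, 19.1 and 19.0 in KO BMP-on. The 3 KO BMP-on libraries were the lowest of the 12, and the other groups overlapped. The log2 fold change was -0.33 ± 0.076 (edgeR adjusted p = 0.0208), a call kept in 7 of the 12 fits without a library. *RAD51C* fell on BMP release in KO cells (-0.40 ± 0.072, adjusted p = 8.54e-04), while *RAD51B*, *RAD51D* and *XRCC3* did not pass there (adjusted p = 0.0959, 0.606 and 0.591). *XRCC3*, whose longest transcript has the highest GC content of the 36 at 63.8%, was at 10.4 CPM in KO BMP-off replicate 2 against 15.7 and 18.3 CPM in the other KO BMP-off libraries. Its log2 fold change in the KO BMP response turned from 0.13 ± 0.16 to -0.24 ± 0.081 with the GC correction (adjusted p = 0.0316). *XRCC3* also shares 5756 of 7507 exon bases with *KLC1* on the opposite strand.

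Break sensing and end resection involve the MRN complex, which detects ends, and nucleases and helicases that extend the single strand. *EXO1*, the long-range resection exonuclease (ENSG00000174371, chr1:241847967-241895148), was at 127, 114 and 117 CPM in WT BMP-off, 103, 104 and 101 in WT BMP-on, 133, 136 and 118 in KO BMP-off and 82.8, 83.4 and 82.7 in KO BMP-on. Both BMP-on groups varied little and did not overlap, with KO the lower. *EXO1* fell by 0.21 on the log2 scale in WT cells (edgeR adjusted p = 0.0451) and by 0.64 in KO cells (adjusted p = 8.16e-07), and KO BMP-on was at 80.7% of WT BMP-on (adjusted p = 0.00425). *BLM*, the helicase of resection and junction dissolution, was at 80.4, 72.5 and 75.6 CPM in WT BMP-off, 67.5, 69.4 and 65.9 in WT BMP-on, 84.5, 84.4 and 79.4 in KO BMP-off and 58.3, 54.9 and 58.7 in KO BMP-on. KO BMP-on was again below every other library. KO against WT with BMP-on gave -0.24 ± 0.053 (edgeR adjusted p = 0.0175), and this call was kept in 6 of the 12 fits without a library. *RBBP8*, which encodes the resection starter CtIP, fell in the KO BMP response (-0.35 ± 0.065, adjusted p = 0.00101) and did not pass in KO against WT with BMP-on (-0.21 ± 0.065, adjusted p = 0.103), but passed with the GC correction (-0.19 ± 0.046, adjusted p = 0.00947). In the MRN complex, *MRE11* fell with BMP release in KO cells (-0.25 ± 0.079, edgeR adjusted p = 0.0320), a call lost in 9 of 25 alternatives. Its KO libraries overlapped, with 65.1 CPM in BMP-on replicate 3 and 65.0 CPM in BMP-off replicate 3. *NBN* and *RAD50* did not pass (-0.15 ± 0.055 and 0.21 ± 0.12, edgeR adjusted p = 0.0565 and 0.221).

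Of the 4 signaling kinases, the cycle-linked *CHEK1* moved with the recombination genes and the apical kinases *ATM* and *ATR* passed in no comparison. *CHEK1*, the effector kinase of ATR, was at 134, 127 and 128 CPM in WT BMP-off, 119, 114 and 122 in WT BMP-on, 137, 139 and 123 in KO BMP-off and 98.5, 97.7 and 103 in KO BMP-on. Its KO BMP-on libraries were the lowest, at 84.4% of WT BMP-on (-0.25 ± 0.052 log2 fold change, edgeR adjusted p = 0.0121). *ATR* differed by -0.024 ± 0.053 on the log2 scale between KO and WT with BMP-on (adjusted p = 0.908), and *ATM* by -0.19 ± 0.10 (adjusted p = 0.451). *CHEK2*, the effector of ATM, was the only steady gene called in the BMP response of WT cells (-0.23 ± 0.059, edgeR adjusted p = 0.0415), and in KO cells it gave -0.16 ± 0.060 (adjusted p = 0.0714), which passed with the GC correction (-0.16 ± 0.055, adjusted p = 0.0303). *MSH6*, a mismatch recognition subunit, was at 299, 275 and 278 CPM in WT BMP-off, 264, 265 and 264 in WT BMP-on, 293, 305 and 272 in KO BMP-off and 227, 235 and 233 in KO BMP-on. The KO BMP-on libraries did not overlap with any other group. It fell by 0.32 on the log2 scale in the KO BMP response (edgeR adjusted p = 1.41e-04) and was at 87.6% of WT with BMP-on (adjusted p = 0.0334), a call kept in 4 of the 12 fits without a library. *MSH6* shares 4288 of 17722 exon bases with *FBXO11* on the opposite strand.

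*POLQ* was lower in KO cells with BMP-on, and *HELQ*, which encodes a helicase related in sequence to that of polymerase theta, passed in no comparison. *POLQ* (ENSG00000051341, chr3:121431431-121545988) was at 83.4, 69.6 and 70.8 CPM in WT BMP-off, 72.6, 72.0 and 70.6 in WT BMP-on, 84.8, 88.4 and 78.7 in KO BMP-off and 51.4, 57.1 and 56.3 in KO BMP-on. The WT groups overlapped, and the KO BMP-on libraries were below all others. BMP release left *POLQ* in WT cells at -0.057 ± 0.068 (edgeR adjusted p = 0.761) and lowered it in KO cells by 0.61 on the log2 scale, to 65.4% of the BMP-off level (adjusted p = 9.68e-06). KO BMP-on was at 76.5% of WT BMP-on (-0.39 ± 0.069, adjusted p = 0.00375). *HELQ* was at 20.2, 19.6 and 20.9 CPM in WT BMP-off, 22.1, 20.5 and 20.9 in WT BMP-on, 20.7, 22.7 and 20.6 in KO BMP-off and 19.9, 23.6 and 21.8 in KO BMP-on. All 4 groups of *HELQ* overlapped, and its log2 fold changes lay between 0.025 ± 0.075 and 0.078 ± 0.075 in the 4 comparisons of groups.

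**Figure D4:**
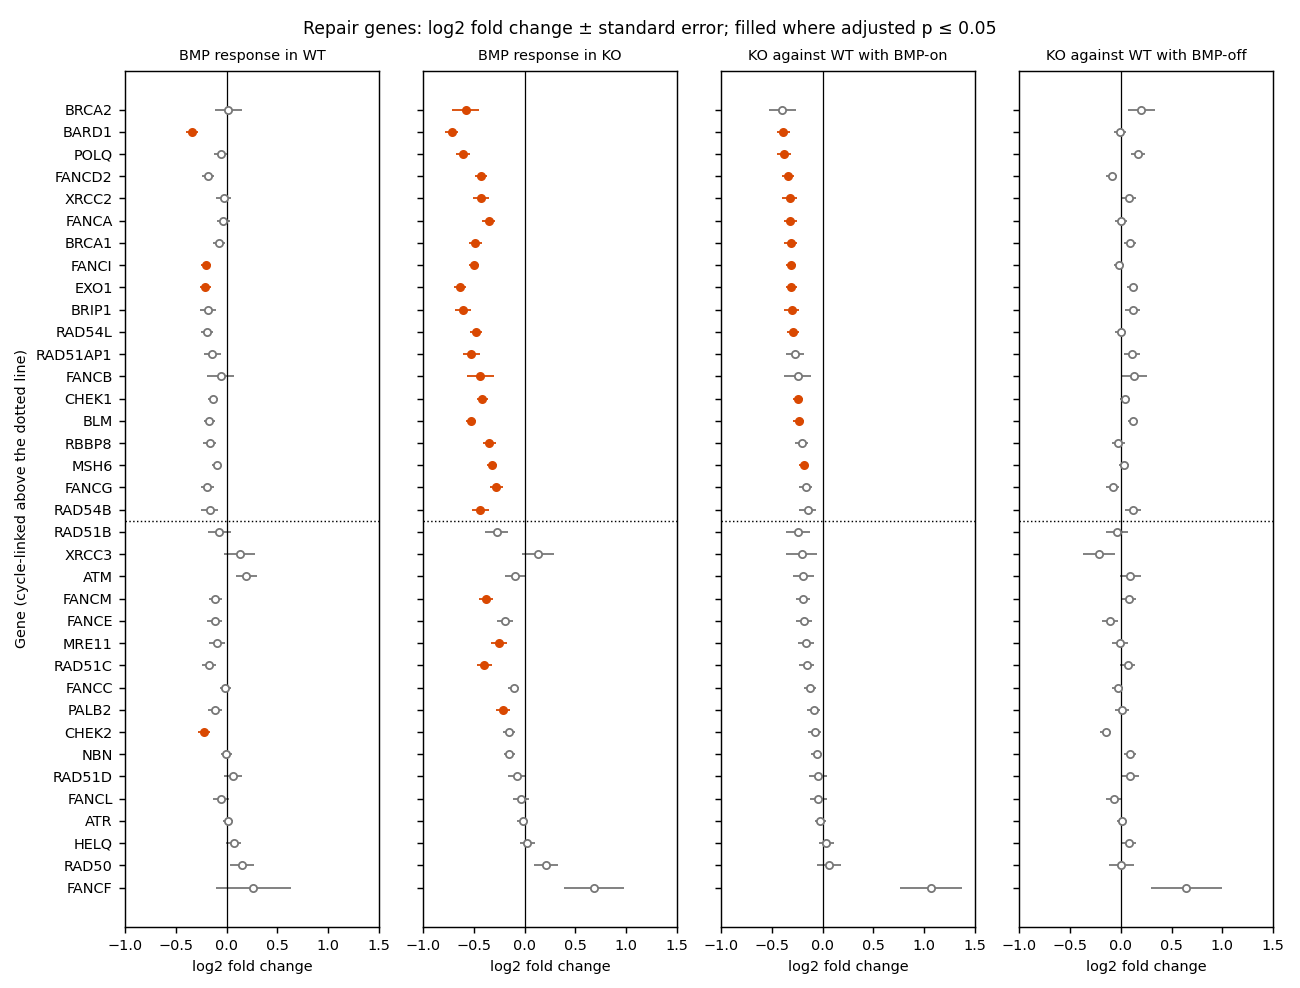
Log2 fold change with its standard error (horizontal axes) of the 36 repair genes in 4 comparisons, filled where the edgeR adjusted p is at most 0.05. Filled points are 4 in the BMP response of WT cells, 23 in that of KO cells, 13 between the BMP-on groups and 0 between the BMP-off groups.

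A response to Cas9 cutting was looked for in KO against WT with BMP-off, where Dox was added and BMP signaling was blocked throughout. In that comparison 0 of the 36 repair genes passed with edgeR's test, and 0 with DESeq2, limma-voom or the GC correction, where 0.0407% of all genes passed, 0.559% with the GC correction and 0.0116% with a change of at least 1 log2 unit. At an unadjusted p under 0.05 there were 3 of the 36 genes, beside 10.2% of all genes. These were *CHEK2* (-0.15 ± 0.059), *POLQ* (0.17 ± 0.068) and *BLM* (0.12 ± 0.053), and the smallest adjusted p was 0.425. The median was 0.077 over the cycle-linked genes and 0.010 over the steady genes, and 1 of the 36 genes was lower and 2 were higher without overlap of the libraries, where 5.96% and 5.76% of all genes were. Among genes compiled from general knowledge, 0 of 26 tested p53 damage targets and 0 of 16 genes of nonhomologous end joining and 53BP1 passed with BMP-off, with 3 and 1 at an unadjusted p under 0.05. With the GC correction, 1 of the 26 p53 targets was higher. Without overlap of the libraries, 5 of the 26 p53 targets were higher and 0 lower in KO, and 0 of the 16 end joining genes were either. RNA was taken 24 hours after the 3 days with Dox, so that an earlier response was not measured.

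The p53 targets were also compared between the BMP-on groups. Of the 26 tested p53 targets, 2 were higher in KO than in WT and 2 were lower, where 3.67% of all genes passed and 2.34% were lower. With the GC correction, 4 were higher and 2 lower, beside 2.60% and 4.79% of all genes. Without overlap of the libraries, 8 were higher and 3 lower, beside 11.4% and 12.2% of all genes. *CDKN1A*, the cyclin-dependent kinase inhibitor p21, was at 88.6 to 105 CPM in WT BMP-on and 164 to 186 CPM in KO BMP-on (0.87 ± 0.071 log2 fold change, edgeR adjusted p = 4.31e-06), and *TP53INP1* gave 0.59 ± 0.10. *PLK2* and *DDB2* were lower (-0.50 ± 0.083 and -0.30 ± 0.073). *CDKN1A* also rose with BMP release in WT cells (1.18 ± 0.074, edgeR adjusted p = 7.17e-08). The rise was larger in KO cells, by 0.75 ± 0.10 on the log2 scale (edgeR adjusted p = 0.00843). Whether Cas9 cutting had a part in this difference was not tested. Of the 16 genes of nonhomologous end joining and 53BP1, edgeR called 0 as different between the BMP-on groups. There was 1 at an unadjusted p under 0.05, beside 13.8% of all genes, and 1 was higher with the GC correction, beside 2.60%.

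Whether BMP release lowered the repair genes more in KO than in WT cells was tested as an interaction. *POLQ* was the only 1 of the 36 that passed, with a difference of -0.56 ± 0.097 on the log2 scale (edgeR adjusted p = 0.0413), and 0.0931% of all genes passed. The difference was negative for all 19 cycle-linked genes (median -0.36) and for 12 of the 17 steady genes (median -0.096). At an unadjusted p under 0.05 there were 18 of the 36, beside 10.6% of all genes. With the GC correction, 10 of the 36 passed, all cycle-linked and negative, and 1.37% of all genes did. These were *POLQ* (-0.50 ± 0.072), *FANCA* (-0.42 ± 0.080), *EXO1* (-0.38 ± 0.060), *BRCA1* (-0.36 ± 0.062), *BRIP1*, *RAD54L*, *XRCC2*, *BLM*, *FANCI* and *CHEK1*. DESeq2 called 8 and limma-voom 0. The single call depended on individual libraries, with 10 calls without KO BMP-off replicate 3, 8 without WT BMP-off replicate 1, 1 without KO BMP-off replicate 2, and 0 without any 1 of the other 9. Calls among all genes varied too, from 4 without WT BMP-on replicate 2 to 236 without WT BMP-off replicate 1.

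**Figure D5:**
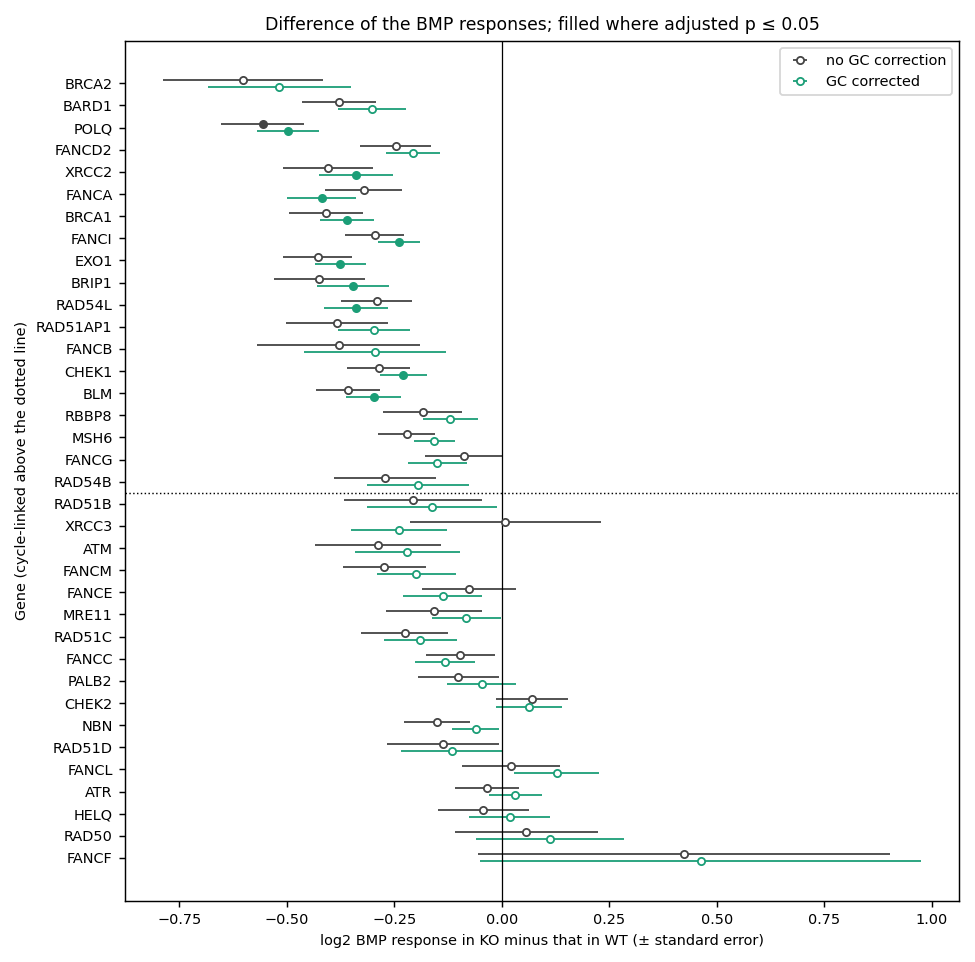
Log2 BMP response in KO cells minus that in WT cells (horizontal axis, with standard error) for the 36 repair genes, without (gray) and with (green) the GC correction, filled where the edgeR adjusted p is at most 0.05. All 19 cycle-linked genes lie left of 0 in both, with 1 filled point without the correction and 10 with it.

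General cell cycle genes were lower in the same comparisons. Of 40 S phase genes of the Seurat list that are not among the 36, 36 fell with BMP release in KO cells (median -0.43), 10 in WT cells (median -0.14), and 27 were lower in KO than in WT with BMP-on (median -0.24). Of 54 G2/M genes, 49 fell in KO cells (median -0.43), 20 in WT cells (median -0.17), and 40 were lower in KO with BMP-on (median -0.30). Of all genes, 10.9%, 2.01% and 2.34% were lower in the same order. With BMP-off, 0 of the 40 and 0 of the 54 were called in KO against WT, beside 0.0407% of all genes. At an unadjusted p under 0.05 there were 3 and 9, beside 10.2%. The GC correction gave 1 S phase and 2 G2/M genes lower there, where 0.559% of all genes passed in either direction. It gave 17 and 37 lower with BMP release in WT cells, where 5.56% of all genes were. Without overlap of the BMP-off libraries, 2 S phase genes were lower and 1 higher in KO, and 7 G2/M genes were lower, beside 5.96% of all genes lower and 5.76% higher. *PCNA*, the sliding clamp of replication, was at 284 to 303 CPM in WT BMP-on and 240 to 252 CPM in KO BMP-on (-0.28 ± 0.045 log2 fold change). *MKI67*, a proliferation marker, varied from 254 to 330 CPM in KO BMP-on and from 326 to 426 CPM in WT BMP-on (-0.43 ± 0.17, adjusted p = 0.297). How far a smaller share of cycling cells accounts for the lower repair transcripts was not tested.

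Other genes of the same pathways, from lists compiled from general knowledge, were compared between the BMP-on groups, where 3.67% of all genes passed and 2.34% were lower. Of 19 further Fanconi and crosslink repair genes, 4 were lower and 0 higher, among them the nucleases *DCLRE1A* (-0.26 ± 0.054) and *DCLRE1B* (-0.22 ± 0.049) and the ubiquitin ligase *RFWD3* (-0.24 ± 0.048). Of 26 further recombination genes, 5 were lower and 0 higher, with *RMI2*, a partner of BLM, at -0.41 ± 0.061, *FIGNL1* at -0.31 ± 0.064 and *MMS22L* at -0.29 ± 0.066. Of 16 checkpoint and break signaling genes, 4 were lower and 0 higher, including *CLSPN*, the adaptor that activates CHEK1 (-0.36 ± 0.082), *TIMELESS* (-0.27 ± 0.042) and *WEE1* (-0.26 ± 0.062). Of 6 partners of the polymerase theta pathway, 1 passed, the flap nuclease *FEN1* (-0.22 ± 0.043). With the GC correction, 7 of the 19, 11 of the 26, 7 of the 16 and 2 of the 6 were lower, where 4.79% of all genes were.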

How the data were processed

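RNA-seq of 12 libraries was analysed, with groups taken from the sample labels. The authors discarded reads of ribosomal RNA, used GSNAP to align to GRCh38, counted reads over RefSeq exons with HTSeqGenie and deposited counts and RPKM values per gene. Libraries were made with a low-input Smart-Seq or a TruSeq stranded kit, and which kit served which library, and whether counting used strand, is not given in the sources used here. Symbols and exons came from GENCODE v44.

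The deposited counts were filtered with filterByExpr, scaled by TMM and fitted with edgeR 4.0.16 (R 4.3.3) as 4 group means, with robust quasi-likelihood tests and Benjamini-Hochberg adjustment over the 17188 genes tested. CPM are TMM-scaled and errors in log2 fold changes are standard errors. Alternatives used DESeq2 1.42.0, limma 3.58.1 with voom, log2 of the deposited RPKM plus 1 or 0.1, other scalings and filters, a replicate block, single libraries left out, and a GC correction (loess of log2 counts on GC content of the longest transcript, span 0.4, entered as an offset), which was planned because an earlier analysis of these data had seen a GC trend. Fits were tested on simulated data. The repair genes, their classes and all lists were chosen with earlier results of these data known. S phase and G2/M genes were those of Seurat 5.3.0. Values per library are given for the genes with the 12 smallest p values in KO against WT with BMP-on or in the BMP response of KO cells, for any called with BMP-off or in the interaction, and, chosen after their values were seen, for *FANCF*, *HELQ*, *XRCC3* and *BRCA2*. Other lists name up to 3 lowest and 3 highest called genes with a mean of at least 50 counts.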

Additional observations from a re-analysis of the deposited data

Results flagged for a closer look

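*POLQ* responded to BMP release differently in the 2 genotypes by the interaction test, with a difference of -0.56 ± 0.097 on the log2 scale between the response in KO cells and that in WT cells (edgeR adjusted p = 0.0413). Its level was below that of BMP-off in 3 of 3 KO BMP-on libraries, and the WT groups overlapped. Over 24 alternatives the difference ran from -0.66 to -0.50, and it passed in 10 of them, with a highest adjusted p of 0.226. The direction was not particular to *POLQ*, since the difference was negative for all 19 cycle-linked genes. That of *BRCA2* was larger in size but did not pass (-0.60 ± 0.19, edgeR adjusted p = 0.293).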

How the results depend on the processing

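Over all comparisons and alternatives, counts of the 36 genes called kept within 1.5 times of those reported in 84 cases and moved further in 45. A count of 0 beside a reported 0, as between the BMP-off groups, was taken as kept. Of the called values of single genes, 0 changed sign. Values that were not called could, as *XRCC3* did in KO cells with the GC correction (0.13 to -0.24). The interaction, with 1 call, was the least stable. It gave 8 calls with DESeq2, 9 without a filter, 10 with the GC correction and 2 without both KO BMP-off libraries of strongest GC trend, an alternative chosen after seeing the data, and 0 with limma-voom, with at least 10 counts in every library and with log2 of RPKM plus 1 or 0.1. The 4 calls of the BMP response in WT cells became 2 with upper quartile scaling and with either RPKM scale, and 10 with the GC correction. The 13 calls of KO against WT with BMP-on became 8 with either RPKM scale. Asking in addition for a change of 1 log2 unit or more left 0 calls in each comparison.

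Whether replicate numbers pair the libraries could not be settled. The deviations of same-numbered libraries correlated above 0.1 in 2 of 18 pairs (range -0.187 to 0.189), but they carry the GC trend, which could hide a shared effect. With the replicate block, there was 1 call in the BMP response of WT cells and 0 in the interaction, and 10 and 8 with the block and the GC correction together. The cycle-linked median moved to -0.43 for BMP release in KO cells and to -0.30 in the interaction with the GC correction, with and without the block.

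Leaving out each library in turn gave 1 to 5 calls for the BMP response in WT cells, 19 to 26 in KO cells, 7 to 15 between the BMP-on groups, 0 between the BMP-off groups and 0 to 10 for the interaction. Calls among all genes ran from 366 to 1118, 2314 to 5323, 326 to 862, 2 to 50 and 4 to 236 in the same order. The cycle-linked median ran from -0.17 to -0.12, -0.52 to -0.44, -0.32 to -0.30, 0.018 to 0.13 and -0.41 to -0.32 in the same order, and the steady median from -0.043 to 0.019, -0.15 to -0.11, -0.11 to -0.061, -0.0033 to 0.056 and -0.13 to -0.061. The causes were not tested. Averaged over genes, replicate variance was at least 3.08 times the counting variance in each pair of replicates. This average does not describe genes of few counts such as *FANCF*, *RAD50* and *RAD51B* (means of 11.3, 137.5 and 148 counts), for which depth may limit the tests. Every alternative listed at the outset was run.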
